A study of Homo sapiens with 4 samples.

Results

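The BCL2 family decides whether the outer membrane of mitochondria is opened in a dying cell, and 10 of its genes are described here by their transcript levels. They are the BH3-only genes PMAIP1, BBC3, BCL2L11 and BID, the effector genes BAX and BAK1, and the anti-apoptotic genes BCL2, BCL2L1, MCL1 and BCL2L2. The members were taken by gene symbol from tables of 61541 gene rows, and each of the 10 symbols matched 1 row. All 10 were among the 15778 genes with enough counts to be tested.

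H1299 is a human lung carcinoma line grown in culture. One group of 2 libraries came from H1299 cells treated with nanoparticles prepared from ginseng, and the other group of 2 came from H1299 cells treated with phosphate-buffered saline (PBS). Both groups came from the same line in the same medium, and the labels give no engineered allele for either. Dose, exposure time and plant part of the nanoparticles used for sequencing are not given in the labels. The titles of the nanoparticle libraries also contain the word control, and groups here follow the treatment label. The labels do not say that replicates were separate cultures, so the p-values measure only how far these 4 libraries scatter, and that scatter may be technical. In bulk RNA, fewer cells carrying a transcript and less of it per cell cannot be told apart.

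Proteins of the family act through a short helical segment called BH3. In a stressed cell, BH3-only proteins bind the groove of anti-apoptotic proteins or bind BAX and BAK directly, and freed BAX and BAK assemble into pores that let cytochrome c out to activate caspase-9. The BH3-only proteins differ in their partners: NOXA, the product of PMAIP1, binds mainly MCL1, whereas BIM (BCL2L11) and PUMA (BBC3) bind all the main anti-apoptotic proteins.

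Counts on genes were 24979081 and 24863313 in the nanoparticle libraries and 22252686 and 22456882 in the PBS libraries. Levels are given as CPM, the counts of a gene relative to all counts on genes in its library, after scaling between libraries by TMM. The epithelial keratins KRT8 and KRT18 and vimentin lay between 587 and 2390 CPM in the 4 libraries. All 3 were somewhat lower with nanoparticles: KRT8 had a log2 fold change of -0.11 (SE 0.0255, edgeR adjusted p = 0.024), KRT18 -0.16 (SE 0.0224, adjusted p = 0.000526) and VIM -0.092 (SE 0.0194, adjusted p = 0.0137). Their part in the results below was not tested. The 13 markers of leukocytes, endothelium, fibroblasts and hepatocytes each lay between 0 and 0.844 CPM, and the leukocyte marker PTPRC had no count in any library.

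Of the 10 members, PMAIP1 rose with nanoparticles, none fell, and 9 did not pass the quasi-likelihood test of edgeR at an adjusted p under 0.05. Over all genes tested, 2.58% passed, with 1.75% higher and 0.83% lower (276 and 131 genes). With upper-quartile scaling these 2 counts were 223 and 190. The median log2 fold change was 0.028 for the 10 members and 0.00056 for all genes tested. In 4 members, PMAIP1, BCL2L11, BAK1 and BCL2L2, both nanoparticle libraries lay above both PBS libraries, and in no member did both lie below. Over all genes tested 23.7% had both nanoparticle libraries above both PBS libraries, and 46.9% had groups that did not overlap in 1 direction or the other.

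**Figure D1:**
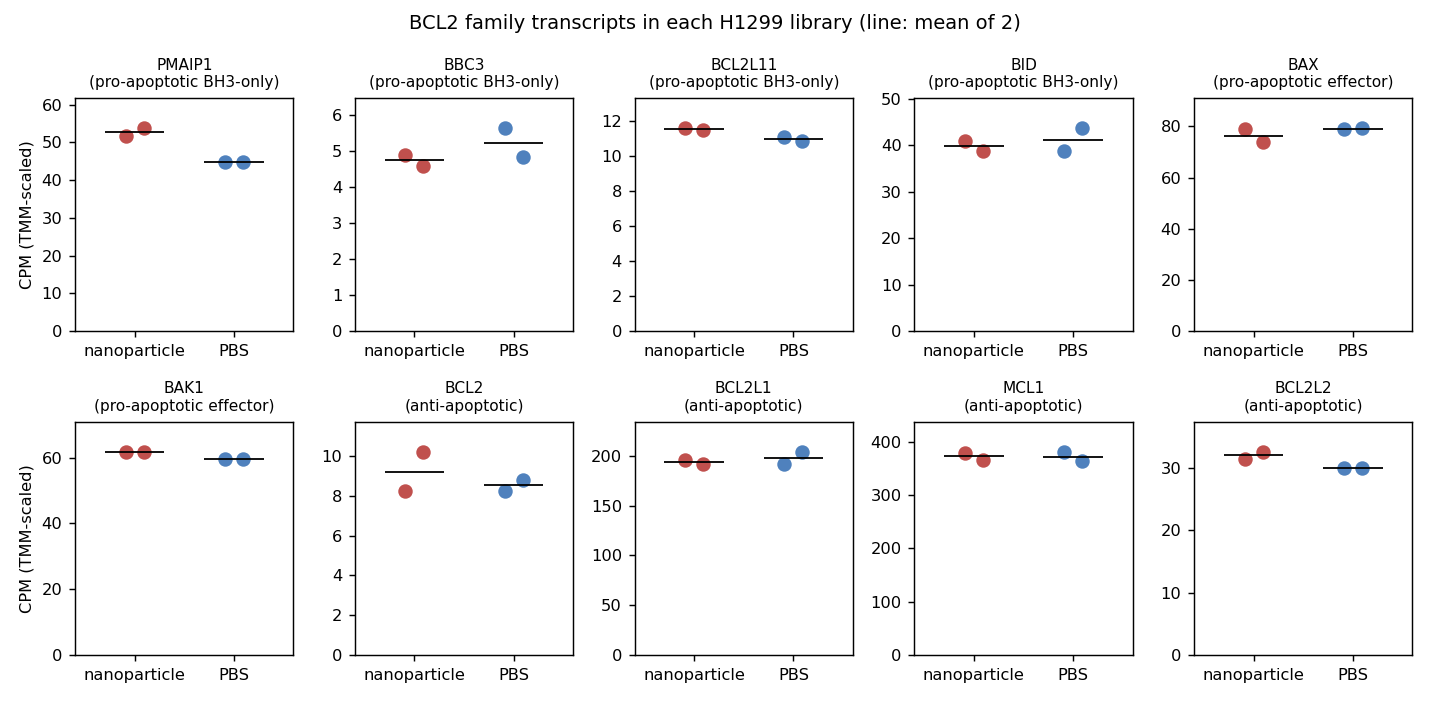
TMM-scaled CPM of each of the 10 members in every library, with 2 nanoparticle libraries on the left and 2 PBS libraries on the right of each panel, a line at each mean and axes from 0. The 2 nanoparticle values of PMAIP1, 51.7 and 53.7 CPM, lie above the PBS values of 44.8 and 44.9 CPM, while the values of MCL1 and BCL2L1 interleave between groups.

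PMAIP1 had 1291 and 1337 counts in the nanoparticle libraries and 996 and 1004 counts in the PBS libraries. Scaled, it stood at 51.7 and 53.7 CPM with nanoparticles and at 44.8 and 44.9 CPM with PBS. Both nanoparticle libraries were higher, and the 2 PBS libraries were nearly equal. The mean was 52.7 ± 1.48 CPM with nanoparticles and 44.8 ± 0.106 CPM with PBS (SD, n = 2 each), a ratio of 1.17. The log2 fold change was 0.23 with a standard error of 0.0492 (95% interval 0.13 to 0.34, edgeR adjusted p = 0.0138, Benjamini-Hochberg over all genes tested). On the linear scale the interval runs from 1.09-fold to 1.26-fold. PMAIP1 ranked 143 of 15778 genes by p-value, and 131 of the 276 higher genes by fold change. It did not pass without PBS replicate 1 (log2 0.23), without PBS replicate 2 (log2 0.23) or without nanoparticle replicate 2 (log2 0.20). Without either PBS library no gene in the table passed, so that loss is not particular to PMAIP1. By the Wald test of DESeq2 the log2 fold change was again 0.23, with an adjusted p = 0.2.

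**Figure D2:**
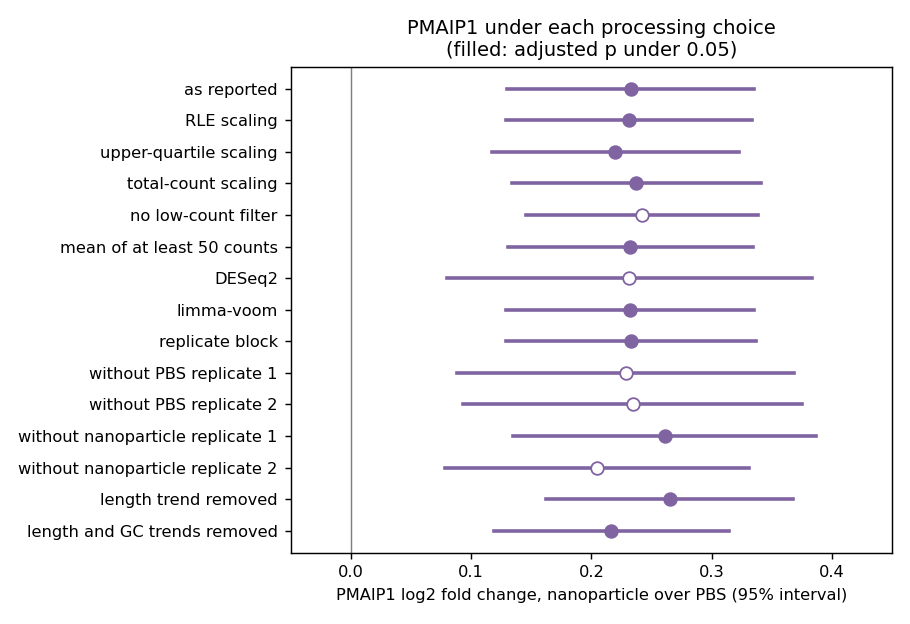
Log2 fold change of PMAIP1, nanoparticle over PBS, with its 95% interval under the reported processing and 14 alternatives; filled points have an adjusted p under 0.05. The estimates run from 0.20 to 0.27, every interval lies above 0, and 9 of the 14 alternatives pass.

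The gene lies on human chromosome 18 from 59899948 to 59904306 on the plus strand (GRCh38, GENCODE 29), and no exon of another annotated gene overlaps its exons. The flank just before that start is shown because PMAIP1 is the member that changed. It is chr18:59899746-59899947, plus strand, from the RefSeq promoter table of build GRCh38.p14, and 76.2% of its 202 bases are G or C. Capitals mark the one match to the motifs searched, a core cyclic AMP response element (CRE) read on the opposite strand.

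PMAIP1 flank: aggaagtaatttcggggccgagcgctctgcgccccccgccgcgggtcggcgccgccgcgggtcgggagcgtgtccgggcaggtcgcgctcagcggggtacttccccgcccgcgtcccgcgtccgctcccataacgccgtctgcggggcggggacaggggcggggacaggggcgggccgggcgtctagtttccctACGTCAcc

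The CRE core, bound by factors of the ATF and CREB family, was searched as TGACGT on both strands in the 250 bases before each RefSeq start. In PMAIP1 it lies 56 to 51 bases before the RefSeq start, which is downstream of the GENCODE start, and it is found in 7.1% of 35116 such windows. The antioxidant response element (TGACNNNGC, 10.9% of windows), the C/EBP-ATF composite (TGATGNAA, 3.14%) and the E-box (CACGTG, 6.34%) had no match in the window of PMAIP1. The windows of BCL2L11, BAK1, BCL2 and BCL2L1 held none of the 4 motifs. BAX held 4 E-boxes and 1 antioxidant element that shares bases with an E-box, BBC3 held 1 E-box, and 2 overlapping windows of BID share 1 E-box. Windows were matched for 8 of the 10 members, and MCL1 and BCL2L2 had none. A match describes letters in the window and was not tested for function. The listed factors ATF4, CREB1 and ATF3, which can bind such elements, did not pass the test. ATF4 stood at 360 and 363 CPM with nanoparticles and at 342 and 351 CPM with PBS (log2 0.06, SE 0.0291, edgeR adjusted p = 0.302). CREB1 had a log2 fold change of 0.063 (SE 0.0535). ATF3 went the other way, at 5.00 and 6.35 CPM with nanoparticles and 6.43 and 5.68 CPM with PBS (log2 -0.093, SE 0.136).

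Among the other BH3-only genes, none passed. BBC3, which encodes PUMA, had 122 and 114 counts with nanoparticles and 125 and 108 counts with PBS, or 4.88 and 4.58 CPM against 5.62 and 4.83 CPM. The groups overlapped, and the log2 fold change was -0.14 with a standard error of 0.135 (edgeR adjusted p = 0.655). It was -0.032 without PBS replicate 1, -0.25 without PBS replicate 2 and -0.035 with length and GC trends removed. The 95% interval of the ratio, 0.745 to 1.10, overlaps that of PMAIP1, 1.09 to 1.26, at its upper end. It also leaves a fall as large as the rise of PMAIP1 possible.

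BCL2L11, which encodes BIM, stood at 11.6 and 11.5 CPM with nanoparticles and at 11.1 and 10.9 CPM with PBS. Its groups did not overlap, yet the difference was small beside the error of counts this low (log2 0.061, SE 0.0915, edgeR adjusted p = 0.799, interval of the ratio 0.914 to 1.19). Exons of the long non-coding RNA MIR4435-2HG, annotated on the opposite strand, cover 10.9% of the exon bases of BCL2L11. That RNA was at 34.6 and 36.2 CPM with nanoparticles and at 33.6 and 35.6 CPM with PBS (log2 0.033, SE 0.0576), and whether counting used strand is not stated in the labels.

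BID, whose product is cleaved by caspase-8 to its active form, stood at 40.9 and 38.8 CPM with nanoparticles and at 38.7 and 43.6 CPM with PBS. The PBS libraries spanned the nanoparticle libraries, and the log2 fold change was -0.047 (SE 0.0597, edgeR adjusted p = 0.757). CASP8 itself was at 22.7 and 22.5 CPM with nanoparticles and 22.1 and 20.3 CPM with PBS and did not pass (log2 0.094, SE 0.071).

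The effector genes BAX and BAK1 encode the proteins that form the pore. BAX stood at 78.8 and 74.0 CPM with nanoparticles and at 78.8 and 79.2 CPM with PBS. BAK1 stood at 61.7 and 61.7 CPM with nanoparticles and at 59.6 and 59.5 CPM with PBS. Nanoparticle replicate 2 was the lowest BAX library and the other 3 were close together, while both BAK1 values with nanoparticles lay above both with PBS. The log2 fold changes were -0.048 for BAX (SE 0.0428, edgeR adjusted p = 0.633) and 0.051 for BAK1 (SE 0.0443, adjusted p = 0.615). The interval of the ratio for BAX, 0.909 to 1.03, lies below that of PMAIP1, 1.09 to 1.26. That for BAK1, 0.972 to 1.10, overlaps it at the upper end, and differences between members were not tested. The processed pseudogenes BAK1P1 and BAK1P2 had at most 2 counts in any library.

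**Figure D3:**
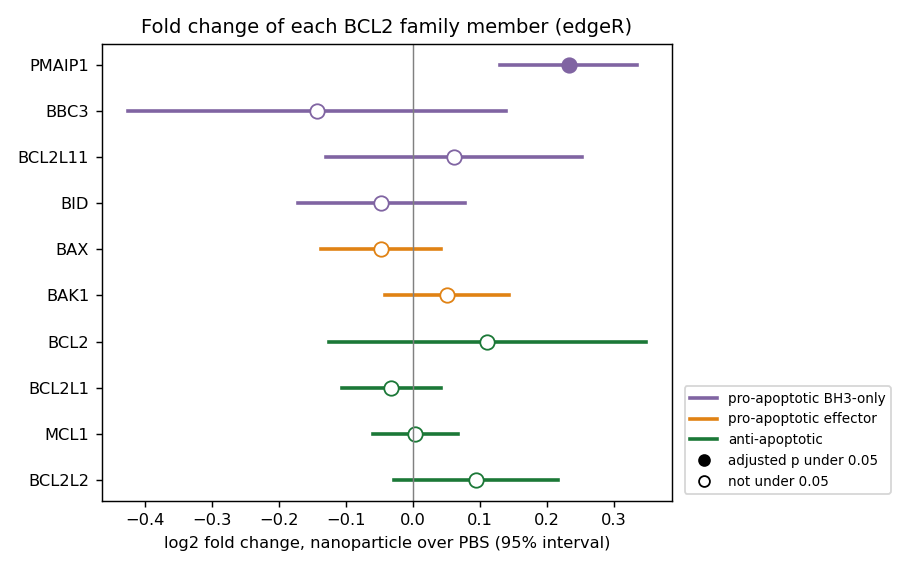
Log2 fold change, nanoparticle over PBS, of each member with its 95% interval, coloured by role; the filled point is the member with an adjusted p under 0.05. PMAIP1 (0.23) is the one interval that does not include 0, and MCL1 (0.004) has the narrowest interval.

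Of the anti-apoptotic genes none passed. MCL1, whose short-lived protein is the main partner of NOXA, had 9500 and 9134 counts with nanoparticles and 8474 and 8139 counts with PBS, which scale to 380 and 367 CPM against 381 and 364 CPM. Both groups spread more within themselves than between them. The log2 fold change was 0.004 with a standard error of 0.0309 (edgeR adjusted p = 0.967), and the interval of the ratio, 0.959 to 1.05, is the narrowest among the members.

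BCL2L1, which encodes BCL-XL, stood at 196 and 192 CPM with nanoparticles and at 192 and 204 CPM with PBS (log2 -0.032, SE 0.0354, edgeR adjusted p = 0.713). The groups overlapped. Gene counts do not separate the long anti-apoptotic form from the short pro-apoptotic form of BCL2L1, nor the long and short forms of MCL1. The antisense RNA ABALON covers 43% of the exon bases of BCL2L1 on the opposite strand and had between 0 and 2 counts in each library. How reads in shared bases were handled is not stated in the labels, so the level of BCL2L1 is uncertain.

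BCL2L2, which encodes BCL-W, stood at 31.5 and 32.6 CPM with nanoparticles and at 30.0 and 30.0 CPM with PBS. Its groups did not overlap and its log2 fold change was 0.095 (SE 0.0589, edgeR adjusted p = 0.448, interval of the ratio 0.981 to 1.16). The read-through gene BCL2L2-PABPN1 shares 19.4% of the exon bases of BCL2L2 on the same strand and had between 0 and 2 counts per library. The level of BCL2L2 is therefore uncertain too. BCL2, the founding member, stood at 8.24 and 10.2 CPM with nanoparticles and at 8.23 and 8.81 CPM with PBS (log2 0.11, SE 0.113, edgeR adjusted p = 0.684). Its interval of the ratio, 0.917 to 1.27, leaves a change as large as that of PMAIP1 possible.

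Levels were compared between genes as CPM per kb of the principal transcript, the main protein-coding transcript of the annotation. BAX had the highest level at 98.0, between 93.4 and 99.9 over the 4 libraries, and its range overlapped that of MCL1 at 94.9 (92.6 to 96.9). BCL2L1 followed at 75.2, BAK1 at 28.4, PMAIP1 at 25.0, BID at 16.2, BCL2L2 at 8.61, BCL2L11 at 7.41, BBC3 at 2.71 and BCL2 at 1.19 CPM per kb. Apart from BAX and MCL1, no neighbours in this order had overlapping ranges. The levels of BCL2L1, BCL2L2 and BCL2L11 are uncertain, since other genes share part of their exon bases. Per kb of all exons of the gene, MCL1 (85.4) and BCL2L1 (59.2) came before BAX (30.0) and the other ranks were the same. The place of BAX therefore rests on the transcript length used, which is 793 bases for the principal transcript and 2587 bases for the union of exons. BCL2L11 also depends on it, with 7.41 CPM per kb of principal transcript and 1.69 per kb of all exons. On the latter measure its libraries (1.64 to 1.74) lay within the range of BBC3 (1.44 to 1.77), so the order of BCL2L11 and BBC3 is not settled.

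**Figure D4:**
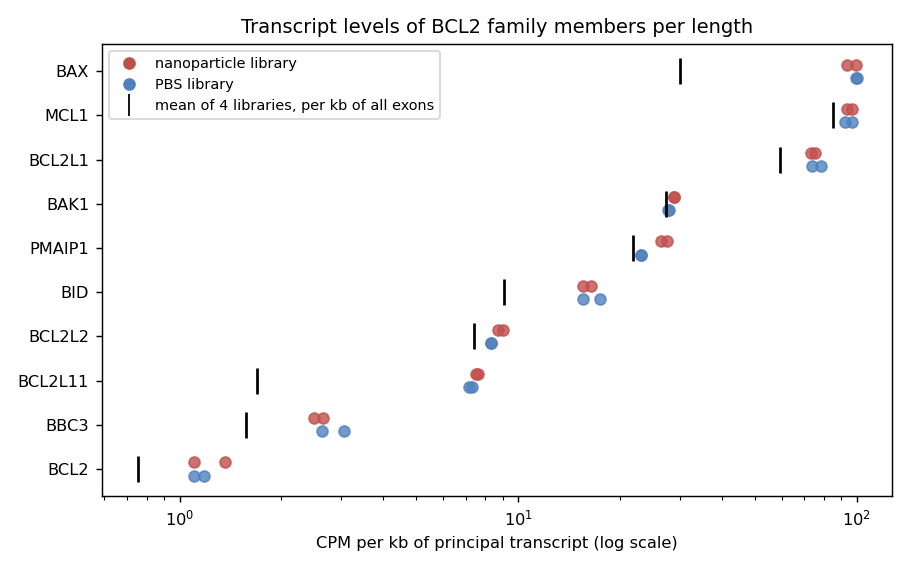
Level of each member as CPM per kb of the principal transcript on a log axis, with nanoparticle libraries drawn above PBS libraries in each row and a tick for the mean per kb of all exons. Libraries of both groups lie close together beside the differences between genes, from 1.19 for BCL2 to 98.0 for BAX.

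Set against MCL1, the per-length level of PMAIP1 was 0.274 and 0.295 of that of MCL1 in the nanoparticle libraries and 0.237 and 0.249 in the PBS libraries. With PMAIP1 higher and MCL1 nearly equal between groups, this ratio restates the rise of PMAIP1 and is no separate result. PMAIP1 made up 49.9% and 51.9% of the summed per-length level of the 4 BH3-only genes with nanoparticles and 47.0% and 45.8% with PBS. Per kb of all exons this share was 65.0% and 66.9% with nanoparticles and 62.3% and 60.8% with PBS. Its size thus depends on the lengths used, and its difference between groups also follows the rise of PMAIP1. Of the summed anti-apoptotic level MCL1 held 53.2% and 52.7% with nanoparticles and 53.8% and 51.3% with PBS. BCL2L1 held 41.4% and 41.5% with nanoparticles and 41.0% and 43.4% with PBS, so BCL2 and BCL2L2 made up the small remainder. These shares carry the uncertain levels of BCL2L1 and BCL2L2. Summed per length, the ratio of the 6 pro-apoptotic to the 4 anti-apoptotic genes was 0.998 and 0.990 with nanoparticles and 0.978 and 0.987 with PBS. Per kb of all exons it was 0.608 and 0.614 with nanoparticles and 0.585 and 0.592 with PBS, so the absolute value depends on the lengths used. These sums were not tested, since they were formed over genes chosen with earlier results known.

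Over all genes, the median log2 fold change was higher for longer transcripts in these libraries, so each member was set beside genes of like length. PMAIP1 has a principal transcript of 1948 bases, and the 1108 genes above 5 CPM with 1857 to 2274 bases had a median log2 fold change of -0.021, against 0.23 for PMAIP1. After removal of each library's trend with length, PMAIP1 had a log2 fold change of 0.27 (edgeR adjusted p = 0.00849), and with length and GC trends both removed it had 0.22 (adjusted p = 0.0174). BAX, the shortest member, had -0.048 beside a median of -0.064 for the 1109 genes of up to 1356 bases, and 0.02 once the trend was removed. BCL2, the longest at 7461 bases, had 0.11 beside a median of 0.082, and 0.05 once the trend was removed. BCL2L11 and BAK1 had 0.11 and 0.078 with the length trend removed, both further from 0 than before. No other member passed after either removal.

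**Figure D5:**
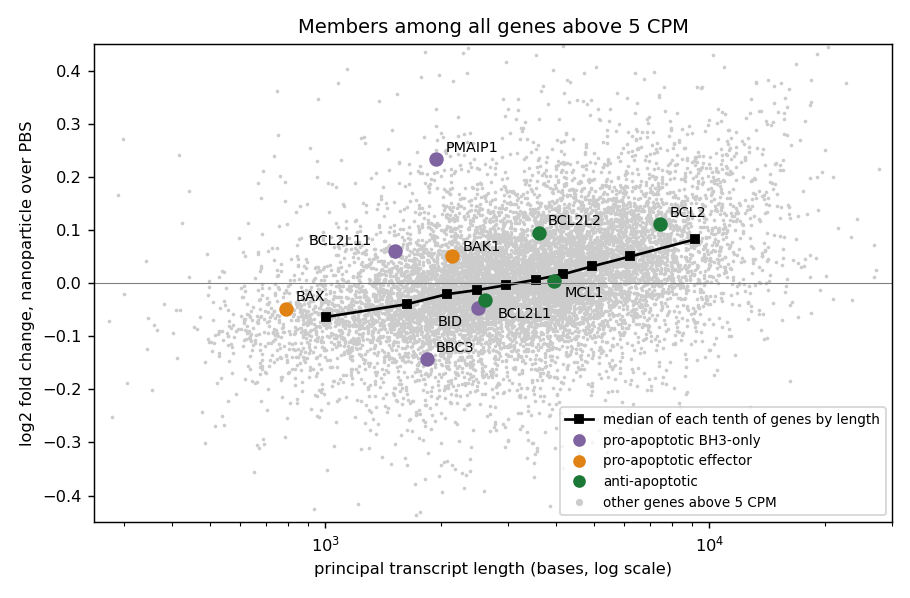
Log2 fold change, nanoparticle over PBS, against principal transcript length (log axis) for genes above 5 CPM in grey, with medians of 10 length groups as squares and the 10 members coloured by role; genes outside the plotted range are not drawn. PMAIP1 lies well above the median of its length group (-0.021), while BID, BCL2L1 and MCL1 lie near the line of medians.

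The rest of the family gave no call. Of 13 further BCL2 family genes 10 had enough counts to be tested and none passed an adjusted p of 0.05 in edgeR, with a median log2 fold change of -0.061. Of these 10, 1 had an unadjusted p under 0.05, as had 2648 of all 15778 genes tested. BOK, a relative of BAX and BAK, was at 88.3 and 90.9 CPM with nanoparticles and at 96.3 and 99.2 CPM with PBS (log2 -0.13, SE 0.0388, edgeR adjusted p = 0.0929). BAD, a BH3-only gene controlled by phosphorylation in its protein, had a log2 fold change of -0.081 (SE 0.0515), and BCL2L13, a mitophagy receptor, had -0.038 (SE 0.0353). With length and GC trends both removed BOK had a log2 fold change of -0.065 (edgeR adjusted p = 0.478). Exons of GPR137 on the opposite strand cover 23.7% of the exon bases of BAD, so its level is uncertain. BCL2L10, BCL2L14 and BCL2L15 had at most 3 counts in any library.

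Among 12 genes that control the turnover of BCL2 family proteins, 11 were tested, 2 rose and none fell, with a list median of 0.027. Over all genes tested 1.75% were higher and 0.83% lower, which is the background for this list and those below. No list was tested as a set. Both act on MCL1, but the list was made of genes that act on BCL2 family proteins, so sharing this target is no result of these data. Among the 9 that did not pass, FBXW7, BTRC, MARCHF5 and USP13 had log2 fold changes of 0.025, 0.044, 0.025 and 0.005. HUWE1, a ubiquitin ligase of MCL1, rose to 361 and 372 CPM with nanoparticles, against 302 and 325 CPM with PBS (log2 0.22, SE 0.0338, edgeR adjusted p = 0.000685). USP9X, which removes ubiquitin from MCL1, rose to 137 and 142 CPM with nanoparticles, against 121 and 129 CPM with PBS (log2 0.16, SE 0.0375, edgeR adjusted p = 0.0296). With the length trend removed HUWE1 had a log2 fold change of 0.097 (edgeR adjusted p = 0.16) and USP9X 0.046 (adjusted p = 0.632), and with length and GC trends both removed HUWE1 passed and USP9X did not. HUWE1 also lost its call without nanoparticle replicate 2 (edgeR adjusted p = 0.0579), and USP9X without nanoparticle replicate 1 (0.0765) or 2 (0.339). CUL5, the scaffold of a ligase that degrades NOXA, had a log2 fold change of 0.12 and did not pass (SE 0.0467, edgeR adjusted p = 0.187), and it had 0.038 with both trends removed.

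Among 13 mitochondrial and endoplasmic reticulum partners, ITPR2 rose and 12 did not pass, with a list median of -0.031. ITPR2, a calcium channel of the endoplasmic reticulum, was at 37.5 and 37.8 CPM with nanoparticles and at 30.1 and 32.3 CPM with PBS (log2 0.27, SE 0.0579, edgeR adjusted p = 0.0138). It did not pass without nanoparticle replicate 1 (log2 0.28, edgeR adjusted p = 0.0676) or 2 (log2 0.27, adjusted p = 0.154), or with the length trend removed (log2 0.17, adjusted p = 0.162). MTCH2, the mitochondrial receptor of cleaved BID, had a log2 fold change of -0.08 (SE 0.0334) and BCAP31 had -0.075 (SE 0.0338), and neither passed. BCAP31 had -0.024 with both trends removed and -0.031 without nanoparticle replicate 2.

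Among 12 factors released from mitochondria and caspases, CASP9 rose and 11 did not pass, with a list median of 0.019. CASP9, the caspase activated by cytochrome c and APAF1, was at 49.2 and 44.3 CPM with nanoparticles and at 25.6 and 27.7 CPM with PBS (log2 0.81, SE 0.0632, edgeR adjusted p = 1.78e-07). CYCS, which encodes cytochrome c, had a log2 fold change of 0.027 (SE 0.0342). XIAP, an inhibitor of caspases, had 0.15 (SE 0.0594) and the nuclease gene ENDOG had -0.18 (SE 0.0584), neither past the threshold. With both trends removed XIAP had 0.055 and ENDOG -0.067. Exons of DIABLO, at 3.40 and 2.89 CPM with nanoparticles and 3.28 and 3.45 CPM with PBS, are shared with other genes, and 39.2% of those of ENDOG with SPOUT1 on the opposite strand, so both levels are uncertain.

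Among 15 transcription factors known to act on BCL2 family genes, 14 were tested, MYC fell, and none rose, with a list median of -0.044. MYC, which can raise BCL2L11 transcription, was at 222 and 232 CPM with nanoparticles and at 243 and 261 CPM with PBS (log2 -0.15, SE 0.0366, edgeR adjusted p = 0.0296). It did not pass without nanoparticle replicate 1 (edgeR adjusted p = 0.226) or 2 (0.151), or with the length trend removed (log2 -0.10, adjusted p = 0.237). HIF1A had a log2 fold change of 0.12 and did not pass (SE 0.036, edgeR adjusted p = 0.0841), and it had 0.079 with both trends removed. The stress factor DDIT3, a known activator of BCL2L11, had -0.043 (SE 0.0635), with 27.2% of its exon bases shared with MARS1 on the opposite strand. CASP9 and HUWE1 also passed by DESeq2, while ITPR2, USP9X and MYC did not (DESeq2 adjusted p = 0.206, 0.225 and 0.103). None of the genes of the 5 lists passed without PBS replicate 1 or without PBS replicate 2, where no gene in the table did: the lowest adjusted p was 0.212 and 0.139, with 1562 and 1672 genes at an unadjusted p under 0.05 (edgeR). The log2 fold changes of the 5 genes without PBS replicate 1 and without PBS replicate 2 were 0.75 and 0.87 for CASP9, 0.22 and 0.32 for ITPR2, 0.17 and 0.28 for HUWE1, 0.11 and 0.20 for USP9X, and -0.21 and -0.098 for MYC.

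Among 8071 other genes with a mean of at least 20 CPM, the 5 whose pattern over the 4 libraries was most like that of PMAIP1 were MGAT5, FAM135A, DENND4C, AFF1 and TAOK1. Likeness was the root mean square difference of log2 CPM after centring each gene, which was between 0.00735 for MGAT5 and 0.0107 for TAOK1, against a median of 0.122. MGAT5 was at 70.4 and 73.1 CPM with nanoparticles and at 61.7 and 61.2 CPM with PBS. DENND4C and AFF1 did not pass the threshold (edgeR adjusted p = 0.0711 and 0.0709). The 5 genes have principal transcripts of 5042 to 12407 bases, against 1948 for PMAIP1. They share libraries and depth with PMAIP1, and 4 points cannot separate genes that follow one another from genes that happen to match.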

How the data were processed

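Poly(A) RNA from cultured H1299 cells was sequenced as 4 libraries. Each deposited table holds raw counts of reads for Ensembl gene IDs. The submitters' processing notes name HTSeq 2.0.2, STAR 2.7.6a, Picard, cutadapt 3.5 and bcl2fastq 2.20, and build GRCh38. The sources used here give neither the annotation release, nor whether counting used strand, nor how overlapping genes were handled. Reads given to no gene (13.7% to 14.8%, of which 4.78% to 4.81% of all reads were ambiguous between genes) were left out.

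After filterByExpr and TMM scaling, the 2 groups were compared with edgeR 4.0.16 in R 4.3.3 (quasi-likelihood, two-sided, Benjamini-Hochberg over all genes tested, threshold 0.05). Standard errors come from the unshrunken coefficient and its F statistic. The biological coefficient of variation was 2.46%. Symbols matched 61369 rows. Positions, lengths and GC came from GENCODE 29, whose release may differ from that of the counting. The chi-square per degree of freedom between replicates was 1.95 (nanoparticle) and 1.78 (PBS), so no library was treated as a copy. Alternatives were other scalings and filters, DESeq2 1.42.0, limma-voom (limma 3.58.1), a replicate block, leaving out each library, and removing per-library trends with length, or length and GC, by a robust spline (4 degrees of freedom, genes above 5 CPM, MASS 7.3.60.0.1). All members are named; of each list, genes past the threshold and up to 3 with the smallest p, and further genes where the text singles them out after their values were seen. Members, lists and the length alternatives were chosen with earlier results of these data known. The values of 1 listed transcription factor are not reported here. The 4 motifs were chosen after the fits.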

Additional observations from a re-analysis of the deposited data

How the results depend on the processing

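PMAIP1 kept its direction in all 14 alternatives (log2 0.20 to 0.27, adjusted p between 0.00105 and 0.544) and passed in 9. It did not pass without a low-count filter (log2 0.24, edgeR adjusted p = 0.544) or by DESeq2 (log2 0.23, adjusted p = 0.2). The lowest adjusted p, 0.00105 by edgeR, came from the replicate block, a pass that rests on replicate numbers not taken as pairs. Leaving out 1 library, where the lone library of its group is assumed to vary like the other group, gave log2 0.20 to 0.26. The count of members past the threshold was 0 without the filter and 0 by DESeq2, and 0 to 1 with 1 library left out.

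Over all genes, 407 passed as reported. Without a filter 0 of 27535 passed in edgeR (2297 at an unadjusted p under 0.05), 90 by DESeq2, 214 with the length trend removed, 270 with length and GC trends removed, and 0 to 200 with 1 library left out. Of the listed genes, 5 passed as reported, 0 without a filter, 2 by DESeq2, 1 with the length trend removed, 2 with both trends removed, and 0 to 2 with 1 library left out. Causes were not tested. With the replicate number as a block 759 genes passed and PMAIP1 had an edgeR adjusted p of 0.00105. Same-numbered libraries barely deviated together (correlation 0.0346 over genes), so the numbers were not taken as pairs.

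Among members without a call, the log2 fold change turned sign for BID (0.043) and BCL2L1 (0.011) without PBS replicate 2, for BCL2 (-0.047) without nanoparticle replicate 2, and for BAX with the length trend (0.02) or both trends (0.031) removed. MCL1 turned to -0.009 with upper-quartile scaling and with either trend removal, -0.029 without PBS replicate 2 and -0.021 without nanoparticle replicate 1. BAD turned to 0.019 with both trends removed. With 1 library left out, BBC3 ran from -0.248 to -0.032, BAX from -0.094 to -0.003, BID from -0.133 to 0.043, BCL2L1 from -0.076 to 0.011, BCL2 from -0.047 to 0.255 and MCL1 from -0.029 to 0.035. The ratio of pro-apoptotic to anti-apoptotic levels was 0.990 to 0.998 with nanoparticles and 0.978 to 0.987 with PBS. These are the values of single libraries given above, so leaving out 1 library is no separate check of them. Counts near 100 per library limit what can be said of BBC3, and 2 libraries per group limit every test.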
